A study of Danio rerio with 15 samples.

Results

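In zebrafish embryos exposed to dibutyl phthalate (DBP), 128 of the 46488 listed transcripts had mean levels that declined at every step of the concentration series, 0, 5, 10, 50 and 100 μg/l. They were chosen by a rule on CPM, the estimated counts of a library scaled to a common total of 1000000. The means at the 5 concentrations had to be in strictly falling order, and the control mean had to be at least 1.5 times the mean at 100 μg/l. Every library at 100 μg/l had to lie below both controls used, the mean over 14 libraries had to be at least 5 CPM, and the listed length had to be under 9000 bases. Transcripts whose highest value at 10 to 100 μg/l lay below their lowest value at 0 and 5 μg/l were left out, because they form a step rather than a gradient. The rule therefore used the levels of the members in all 14 libraries, and these levels are given below as a description with no test.

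The study exposed AB strain embryos for 120 h in glass beakers of 30 embryos, with DBP dissolved in fish water without a carrier solvent, and the controls were kept in fish water. A pool of 10 whole embryos was 1 sample, and the 3 samples per concentration were those with the best RNA among 5 replicate beakers. The series holds 15 poly-A libraries, 3 at each concentration, and the replicates carry letters from A to E. The control labelled replicate B was not used by the rule, which leaves 2 controls, D and E, and 12 exposed libraries. The study left out 1 control that diverged in a principal component analysis, and reports a background of 39890 transcripts. This is also the number with a count above 0 in the 14 libraries used here. The sample labels instead mark control D as the outlier. For the 50 μg/l libraries, the titles give 50 μg/l and the protocol text 30 μg/l, and 50 is used here. Fewer cells of a type and less RNA per cell cannot be told apart in whole embryos.

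The libraries held between 17.2 and 28.0 M assigned counts (M, mega). Control B held 24.0 M counts and 34413 detected transcripts, more than the 31932 to 33384 of the other libraries. It lay outside the range of the other 14 libraries in 20.1% of the 16927 transcripts that met the limits on level and length, which are the background used below. The same share was not taken for any other library, so it does not show how far control B differs from them. The library with the lowest total, at 17.2 M, was 100 μg/l replicate A, and the one with the highest, at 28.0 M, was 100 μg/l replicate E.

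DBP is a plasticiser of the phthalate family, which is studied for its effects on development and on hormone signalling. Among the members, 1 could be given a gene name from the text of the study, rxraa, one of the zebrafish retinoid X receptors. These nuclear receptors bind DNA as partners of other receptors, among them the retinoic acid receptors, thyroid hormone receptors and peroxisome proliferator-activated receptors. In vertebrate embryos retinoic acid patterns the hindbrain, the heart and other organs, and the cyp26 enzymes break it down. The deposited files do not pair the other identifiers with gene names, so most members are described by their length and level.

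The rule was met step by step as follows. Of the 16927 background transcripts, 387 had strictly falling means and 148 of these reached the fold of 1.5. The position of the 100 μg/l libraries left 140, and 12 of these were steps, which gives the 128 members, 0.756% of the background. The mirror rule, with every sign turned, was met by 61 rising transcripts, 0.360% of the background, after 8 steps were left out. This imbalance depended on the scaling. With library sizes corrected by TMM (trimmed mean of M values), 88 transcripts met the falling rule and 105 the rising rule, and 79 of the 88 were among the 128 members. The members just inside the fold limit were a transcript of 2190 bases with a ratio of 1.51 and one of 2751 bases with a ratio of 1.51. Just outside it lay a transcript of 675 bases with a ratio of 1.49 and one of 309 bases, also at 1.49.

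The fall was moderate for most members. The median level, as a percentage of the control mean, was 89.6% at 5, 77.2% at 10, 62.9% at 50 and 54.8% at 100 μg/l. Over the background transcripts the same medians were 100.5% at 5, 101.2% at 10, 97.1% at 50 and 96.4% at 100 μg/l. The ratio of the control mean to the mean at 100 μg/l had a median of 1.82 over the 127 members for which it is defined, with quartiles of 1.63 and 2.13. It lay between 1.5 and 2 for 82 members, was at least 2 for 46 and at least 3 for 10. The counts of 46 and 10 include the member at 0 CPM in every library at 100 μg/l, for which the ratio is not defined. The summed level of the members was 7285 ± 249 CPM in the controls (SD, n = 2), 6694 ± 270 CPM at 5, 6119 ± 591 CPM at 10, 5035 ± 495 CPM at 50 and 3987 ± 737 CPM at 100 μg/l (n = 3 each). The SD of this sum among beakers was thus widest at the highest concentration. Abundant members weigh most on the sum, and the most abundant alone had a mean of 2728 CPM in the controls and 1496 CPM at 100 μg/l.

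**Figure D1:**
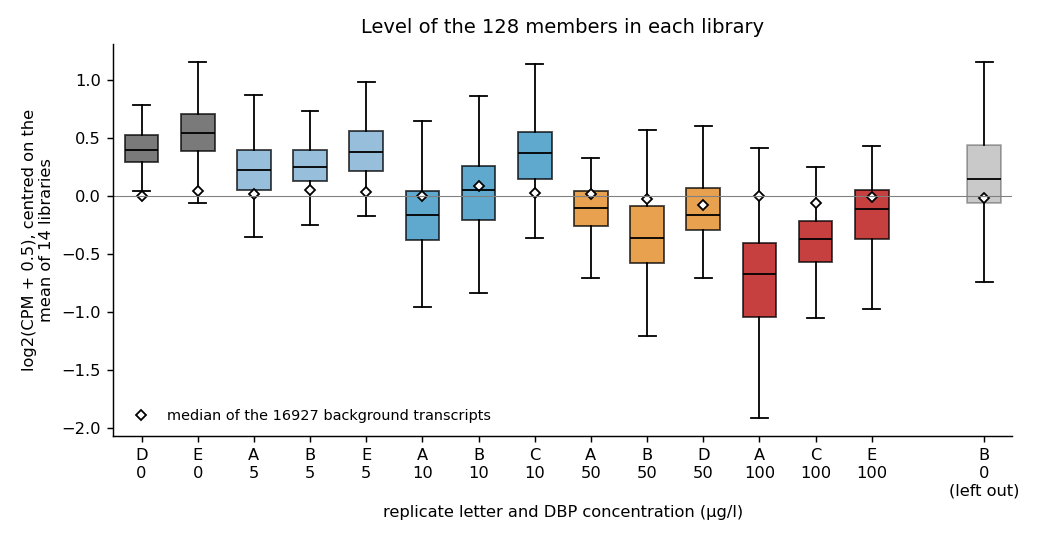
Level of the 128 members in each library, as log2(CPM + 0.5) centred on the mean of 14 libraries (y axis), with the libraries in order of DBP concentration (x axis) and the unused control B at the right. Boxes give the quartiles with the median, whiskers reach 1.5 times the box height at most, points beyond them are not drawn, and diamonds give the median of the 16927 background transcripts, which stays between -0.08 and 0.08; the member medians lie between 0.40 and 0.54 in the 2 controls used and between -0.67 and -0.11 at 100 μg/l, and at 0.38 in 10 μg/l replicate C.

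The libraries of a concentration were not alike. On the centred log2(CPM + 0.5) scale, the median of the members was 0.40 in control D and 0.54 in control E. It was 0.23, 0.25 and 0.38 in replicates A, B and E at 5 μg/l, and -0.16, 0.05 and 0.38 in replicates A, B and C at 10 μg/l. At 50 μg/l it was -0.10, -0.36 and -0.16 in replicates A, B and D, and at 100 μg/l it was -0.67, -0.37 and -0.11 in replicates A, C and E. The gradient of the means thus holds 10 μg/l replicate C, whose median was close to that of control D, and 100 μg/l replicate E, whose median was close to that of 50 μg/l replicate A. The rising transcripts of the mirror rule ran the other way, with a median of -0.47 in control D and -0.25 in 10 μg/l replicate C, but 0.63 in 100 μg/l replicate A. The mirror rule chose them from the same libraries for rising means, so nothing is read from this.

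The order of the libraries within a concentration was shared by many members. At 100 μg/l, replicate E was the highest library in 80 members (background 40.0%) and replicate A the lowest in 85 (background 33.6%). At 10 μg/l, replicate C was the highest in 88 members (37.7%) and replicate A the lowest in 77 (32.2%). At 50 μg/l, replicate B was the lowest in 69 (28.7%), and control E exceeded control D in 97 (60.1%). The members also varied more among beakers of the same concentration than the background did, with a median within-dose SD of 0.33 against 0.21 on the log2(CPM + 0.5) scale. They were also of lower level, with a median of 9.56 CPM against 16.4 CPM, and the SD was not compared at matched level. The first principal component of the deviations from the dose means held 39.5% of their variance in the members and 41.3% in the background. This is a description, since all members share the same libraries and depth, and the rule used these values. Whether the beaker differences had a part in the gradient was not tested.

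As the means fell in order by rule, the overlap between libraries was counted separately. Every library at 5 μg/l lay below both controls in 21 members (7.78% of the background), every library at 10 μg/l in 47 (15.2%) and every library at 50 μg/l in 108 (30.4%). At 100 μg/l this held for all 128 by the rule itself (20.9%). Every library at 10 μg/l lay below every library at 5 μg/l in 3 members (6.43%), a count lowered by the rule itself, since in each of the 12 steps left out every library at 10 μg/l lay below every one at 5 μg/l. Every library at 50 μg/l below every one at 10 μg/l in 14 (5.15%), and every library at 100 μg/l below every one at 50 μg/l in 11 (5.1%). The 50 and 100 μg/l libraries together lay below the control and 5 μg/l libraries in 61 members (4.77%). In 8 members every library at 100 μg/l lay below all others (1.56%). Since the rule chose the members for falling means and left out steps, nothing is read from these counts against the background.

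Members differed in where the largest part of the fall lay. The step with the largest part was from 0 to 5 μg/l in 26 members, from 5 to 10 μg/l in 34, from 10 to 50 μg/l in 46 and from 50 to 100 μg/l in 22. In 53 members a single step held more than 50% of the fall, and in 36 every step held at least 10% of it. Members with the largest step from 0 to 5 μg/l had a median of 74.6% of the control mean already at 5 μg/l and of 50.0% at 100 μg/l. Those with the largest step from 5 to 10 μg/l had 89.6% at 5, 68.2% at 10 and 58.3% at 100 μg/l. Those with the largest step from 10 to 50 μg/l had 84.2% at 10, 63.4% at 50 and 59.3% at 100 μg/l. The last class kept 71.5% at 50 μg/l and had 50.2% at 100 μg/l. The 4 classes had similar median levels, between 8.77 and 10.6 CPM. The place of the steps depended on single libraries and on the scaling. In the edgeR fits described below, the median log2 fold change of the members from 10 to 50 μg/l was -0.17. It was -0.03 without 10 μg/l replicate C, and -0.25 with total counts alone, beside -0.09 over all tested transcripts. From 5 to 10 μg/l the median was -0.19, and -0.31 without 10 μg/l replicate C.

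**Figure D2:**
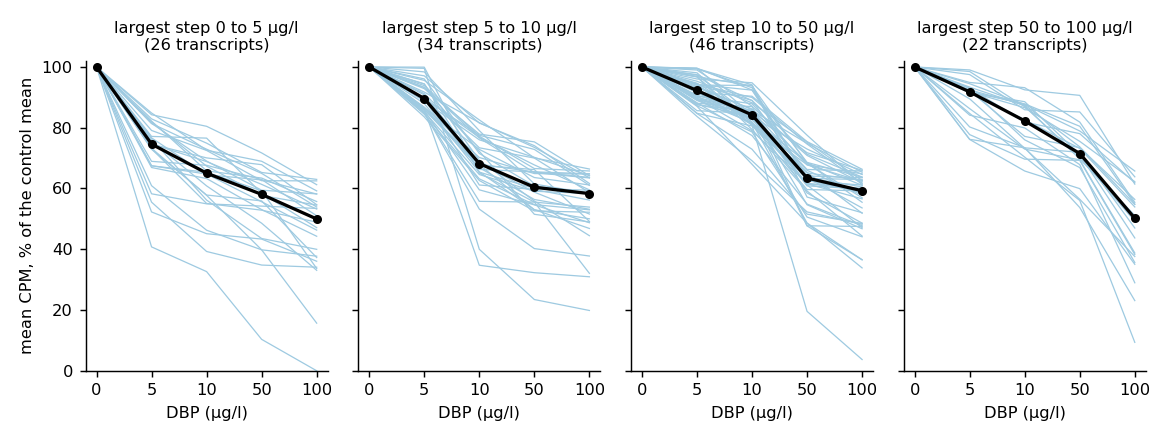
Mean CPM as a percentage of the control mean (y axis) at each concentration in μg/l (x axis, concentrations spaced evenly), with the members split by the step that holds the largest part of their fall. Thin lines are single members and the black line is the median of the class; the medians reach 50.0% to 59.3% of the control mean at 100 μg/l by different routes, and the shape is a description of means over 2 or 3 libraries.

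The transcript of rxraa (ENSDART00000080481.6, 1377 bases) was a member of low level. It had 9.50 and 11.2 CPM in the controls, 9.44, 9.80 and 9.57 CPM at 5 μg/l, 7.09, 9.97 and 8.59 CPM at 10 μg/l, 8.30, 5.34 and 6.57 CPM at 50 μg/l, and 6.69, 5.57 and 7.21 CPM at 100 μg/l. The libraries at 100 μg/l all lay below both controls and below the 5 μg/l libraries, but they overlapped those at 10 and 50 μg/l. Its means were 10.4 ± 1.20 CPM in the controls (SD, n = 2), 9.60 ± 0.18 at 5, 8.55 ± 1.44 at 10, 6.74 ± 1.49 at 50 and 6.49 ± 0.84 at 100 μg/l (n = 3 each). The step from 10 to 50 μg/l held 46.9% of its fall. With a ratio of 1.59 it ranked 106th among the members by fold, and 78th by level. The control that the rule did not use had 8.98 CPM of rxraa, below both other controls and above every library at 100 μg/l. Its mean TPM was 2.83, 2.65, 2.44, 1.88 and 1.77 at 0, 5, 10, 50 and 100 μg/l, so it kept the order on that scale.

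The text of the study also gives transcript identifiers for 3 retinoic acid hydroxylases, and these transcripts were not members. Other genes of retinol metabolism that the study names could not be matched to identifiers, so whether they are members was not checked. For cyp26a1 (ENSDART00000041728.7) the means were 14.9, 17.6, 20.5, 18.5 and 14.1 CPM along the series, with the highest value at 10 μg/l. For cyp26b1 (ENSDART00000110347.3) they were 23.3, 25.8, 24.7, 23.2 and 23.0 CPM, and for cyp26c1 (ENSDART00000077809.5) 8.65, 10.1, 9.35, 8.43 and 7.88 CPM. In these 3 transcripts the mean at 5 μg/l lay above that of the controls, which the rule does not allow. The ratio of the control mean to the mean at 100 μg/l was 1.06 for cyp26a1 and 1.01 for cyp26b1.

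Of the members detected in all 14 libraries, the one with the largest fold was ENSDART00000149922.4 (4206 bases). It had 7.90 and 13.7 CPM in the controls, 8.91, 9.32 and 7.80 CPM at 5 μg/l, 9.19, 5.63 and 9.01 CPM at 10 μg/l, 1.16, 7.71 and 8.56 CPM at 50 μg/l, and 4.63, 1.01 and 1.86 CPM at 100 μg/l. Its control mean was 4.33 times the mean at 100 μg/l, but 1 control lay within the range of the 5 and 10 μg/l libraries and 1 library at 50 μg/l within the range of those at 100 μg/l. The next was ENSDART00000185322.1 (3750 bases), with 21.6 and 22.3 CPM in the controls, 19.5, 20.0 and 16.0 CPM at 5 μg/l, 10.3, 17.8 and 24.6 CPM at 10 μg/l, 14.0, 10.2 and 20.6 CPM at 50 μg/l, and 5.07, 7.66 and 6.37 CPM at 100 μg/l. Here the 3 libraries at 100 μg/l lay below all other libraries, and the libraries at 10 μg/l spanned the controls and the 5 μg/l libraries. In log2, the fold of ENSDART00000149922.4 at 100 μg/l against the controls lay between -2.83 and -1.66 over all alternatives and left-out libraries, that of ENSDART00000185322.1 between -1.89 and -1.57, and that of rxraa between -0.68 and -0.52.

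**Figure D3:**
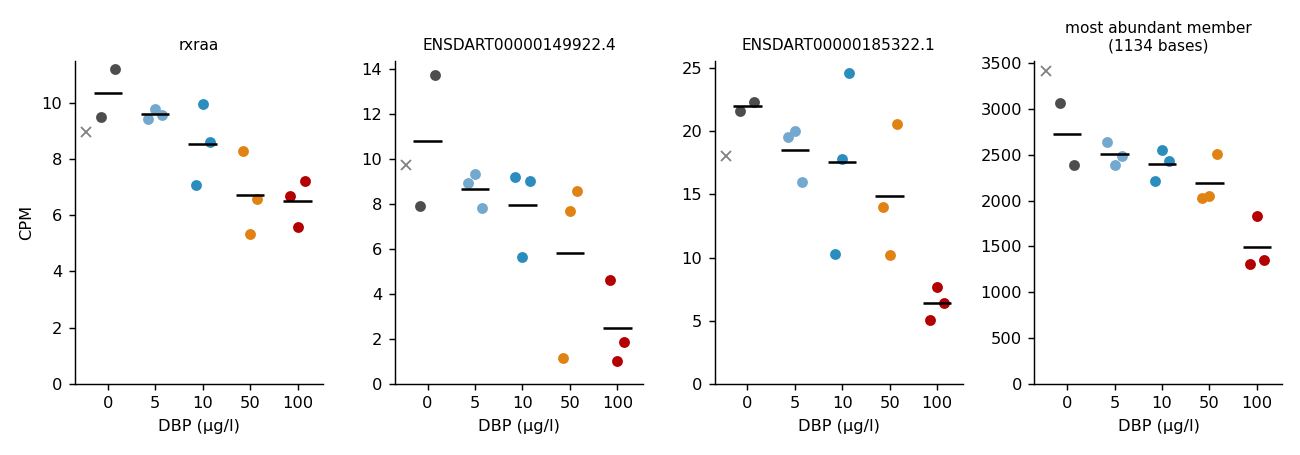
CPM (y axis) of rxraa, the 2 members with identifiers and the most abundant member in each library, by DBP concentration in μg/l (x axis, spaced evenly). Points are libraries, black bars the means, and grey crosses the control that the rule did not use; the libraries at 100 μg/l lie lowest in ENSDART00000185322.1 and in the most abundant member, and overlap lower concentrations in the other 2 panels.

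Most members were of low level. Their mean over the 14 libraries had a median of 9.56 CPM and ranged from 5.03 to 2231 CPM, against a median of 16.4 CPM in the background. In 68 members it lay between 5 and 10 CPM, and 9 members reached 50 CPM. The mean estimated count ranged from 119 to 52098 with a median of 227, so that counting error is larger in proportion for most members than for the few abundant ones.

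The most abundant member, a transcript of 1134 bases, had 3063 and 2394 CPM in the controls, 2638, 2387 and 2490 CPM at 5 μg/l, 2212, 2548 and 2430 CPM at 10 μg/l, 2032, 2050 and 2505 CPM at 50 μg/l, and 1307, 1835 and 1347 CPM at 100 μg/l. Below 100 μg/l the concentrations overlapped in this transcript, and 56.8% of its fall lay in the last step. The next, of 666 bases, had 1065 and 1116 CPM in the controls, 1159, 958 and 1133 CPM at 5 μg/l, 983, 944 and 1120 CPM at 10 μg/l, 700, 599 and 756 CPM at 50 μg/l, and 417, 579 and 921 CPM at 100 μg/l. In it the step from 10 to 50 μg/l held 73.2% of the fall, and replicate E at 100 μg/l exceeded every library at 50 μg/l. A transcript of 594 bases had the same order of libraries at 100 μg/l, with 249.95, 301 and 465 CPM in replicates A, C and E, against 566 and 578 CPM in the controls. It had 578, 502 and 538 CPM at 5 μg/l, 431, 427 and 533 CPM at 10 μg/l and 338, 314 and 371 CPM at 50 μg/l.

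In 3 members, singled out after their values were seen, the mean at 100 μg/l was below 10% of the control mean. The first, of 1242 bases, was at 0 in all 3 libraries at 100 μg/l, against 34.3 and 26.7 CPM in the controls. At 5 μg/l it had 0, 37.3 and 0 CPM, at 10 μg/l 14.9, 15.0 and 0 CPM, and at 50 μg/l 9.46, 0 and 0 CPM, so libraries with and without it occurred at each of these concentrations. Its control mean was 704 times the level that 3 counts over the 3 libraries at 100 μg/l would give, 0.0433 CPM. This value takes account of counting alone and not of the differences among pools, so it is no lower limit for the fold. The second, of 1899 bases, had 0, 1.99 and 0 CPM at 100 μg/l, against 17.5 and 18.3 CPM in the controls. It had 16.2, 16.8 and 19.0 CPM at 5 μg/l, 20.1, 8.87 and 14.4 CPM at 10 μg/l, and 10.5, 0 and 0 CPM at 50 μg/l, and its ratio of 27.0 was the highest of those defined. The third, of 675 bases, had 0, 0 and 2.72 CPM at 100 μg/l, against 13.1 and 6.30 CPM in the controls, with a ratio of 10.7. Its libraries at 5 and 10 μg/l, the highest at 13.2 CPM, overlapped the controls, and those at 50 μg/l lay below them.

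Values of 0 in some library occurred in 11 members, 8.59% of them, against 3.18% of the background. Reads that could stem from more than 1 transcript are shared out by Salmon, and estimated counts that were not whole occurred in 66.4% of the members, against 56.5% of the background. The values of such transcripts depend on how shared reads were divided, and whether this had a part in their decline was not tested. The length of the members had a median of 1479 bases with quartiles of 938 and 2368, against 1452 bases in the background. Up to 1000 bases were listed for 34 members and above 4000 bases for 12.

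The deposited TPM values, which also take account of the effective length that Salmon fitted in each library, were not used by the rule but come from the same libraries. The mean TPM was lower at 100 μg/l than in the controls in all 128 members (61.0% of the background). It was strictly falling in 98 (2.94%), the control mean was at least 1.5 times that at 100 μg/l in 117 (11.6%), and every library at 100 μg/l lay below both controls in 122 (23.7%). All of these held in 90 members (1.16%). TPM derive from the same estimated counts that the rule used, so nothing is read from these numbers of members against the background. The median TPM at 100 μg/l was 53.2% of the control mean in the members and 94.1% in the background. The effective length differed by over 0.1 on the log2 scale between 100 μg/l and the controls in 52 members (32.8%), and was lower at 100 μg/l in 69 (53.5%). For ENSDART00000185322.1 it was 3650 bases at 100 μg/l, against 4074 bases in the controls, and its TPM means did not fall at every step.

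**Figure D4:**
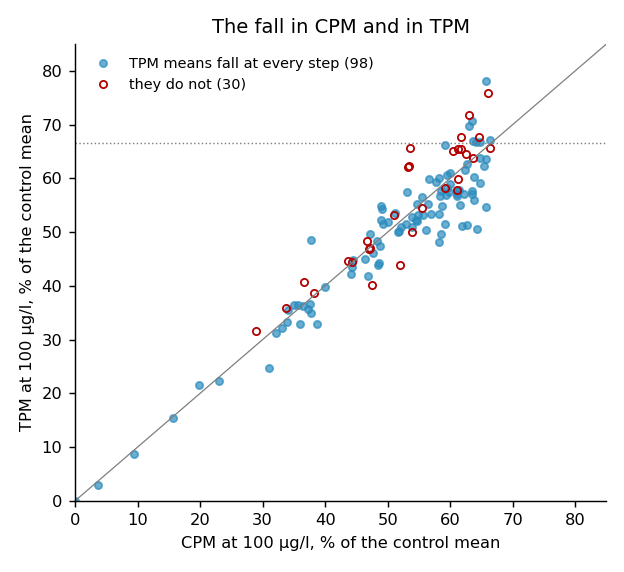
Mean TPM (y axis) and mean CPM (x axis) at 100 μg/l, each as a percentage of the control mean, for the 128 members. Filled points are the 98 members whose TPM means fall at every step and open points the other 30; the grey line marks equal values and the dotted line the fold limit of 1.5 on the TPM scale, under which 117 members lie.

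Control B was the only library outside the rule. It lay above every 100 μg/l library in 85 members (29.4% of the background) and above every exposed library in 21 (6.99%). It lay below both other controls in 91 members (48.2%), within them in 16 (15.4%) and above both in 21 (36.4%), and below every library at 100 μg/l in 8 (31.3%). In 3 members it exceeded 1.5 times the higher of the other controls (4.48%). The median level in control B was 80.3% of the mean of the other controls over the members and 95.5% over the background. Its value was closest to the control mean in 31 members, to that at 5 μg/l in 22, to that at 10 μg/l in 42, to that at 50 μg/l in 17 and to that at 100 μg/l in 16. With control B counted among the controls, 95 transcripts met the rule, 68 of them among the members. The rule chose the members for high values in controls D and E and low values at 100 μg/l, with which control B is compared. Nothing is therefore read from these counts and medians against the background. As control B is only 1 library, no test was made.

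For reference to a test across all transcripts, edgeR was fitted to the 32350 transcripts that passed its filter, which all 128 members did. Because the rule used the same contrasts, nothing is read from the numbers of members called. A trend along the series, with an adjusted p-value under 0.05 and a lower fitted value at 100 μg/l, was called in 12 members (0.371% of all tested), and 91 members had an unadjusted p-value under 0.05 for it (24.4%). Here and below, the shares beside calls are of transcripts called lower, and those beside unadjusted p-values are of transcripts in either direction. Without 100 μg/l replicate E edgeR called the trend in 26 members (387 of 32140 transcripts), and without 10 μg/l replicate C in 13 (174 of 32136). Without each of the other 12 libraries it called 1 to 7 members, beside 18 to 81 transcripts. The fewest members were called without 100 μg/l replicate C (21 of 32147 transcripts). With all 14 libraries the trend was called in 67 with DESeq2 (5.38%) and in 20 with limma (0.764%). For 100 μg/l against the controls, edgeR called 0 members (0.0247%), with 98 at an unadjusted p-value under 0.05 (11.2%), while DESeq2 called 40 (1.5%) and limma 1 (0.0649%). Without 100 μg/l replicate E edgeR called 2 (24 of 32140 transcripts). It called 1 without 5 μg/l replicate E (8 of 32086), and 1 without 50 μg/l replicate A (17 of 32303). For 50 μg/l against the controls edgeR called 0 (0.0185%), with 46 at an unadjusted p-value under 0.05 (16.4%), DESeq2 17 (2.23%) and limma 0 (0.0618%).

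The counts for the lower concentrations and for adjacent concentrations are given in the same way, and nothing is read from them. For 10 μg/l edgeR called 0 (0.0124%), with 12 at an unadjusted p-value under 0.05 (12.8%), DESeq2 called 2 (0.736%) and limma 0 (0.0402%). Without 10 μg/l replicate C edgeR called 1 (44 of 32136 transcripts). For 5 μg/l edgeR called 0 (0.0%), with 2 at an unadjusted p-value under 0.05 (2.25%), DESeq2 0 (0.133%) and limma 0 (0.00927%). Between 10 and 5 μg/l edgeR called 0 (0.0124%), with 0 at an unadjusted p-value under 0.05 (8.15%). Between 50 and 10 μg/l it called 0 (0.0%), with 6 at an unadjusted p-value under 0.05 (3.86%), and between 100 and 50 μg/l 0 (0.0%), with 9 (6.49%). Over these 3 contrasts together DESeq2 called 1 member (0.495%, 0.207% and 0.433% in turn) and limma 0 (0.0464%, 0.00618% and 0.0%). The fitted log2 fold change of the members against the controls had a median of -0.14 at 5, -0.35 at 10, -0.56 at 50 and -0.79 at 100 μg/l, beside medians between 0 and 0.02 over all tested transcripts. These 4 comparisons share the same 2 controls. The median at 5 μg/l depended on the controls and the model. In the main fit 119 members lay below 0 there. With all 15 libraries the median was -0.08, with 89 members below 0. With control B in place of D it was -0.07, with 83 below 0. Adding a term per replicate letter gave -0.02, with 65 below 0. It was -0.16 with DESeq2 (128 below 0) and with total counts alone (127 below 0).

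Single libraries weighed on which transcripts met the rule. Without 100 μg/l replicate E it was met by 661 transcripts, which held 122 of the members, and without control D by 194, which held 115. Without 10 μg/l replicate C it was met by 77 transcripts, of which 58 were members, and without 100 μg/l replicate A by 77, of which 68 were members. The other 10 libraries, each left out in turn, gave between 95 and 149. Without 100 μg/l replicate E the rising rule was met by 120 transcripts, and without control E by 91. With control D left out in place of B, 106 transcripts met the rule, 64 of them members.

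**Figure D5:**
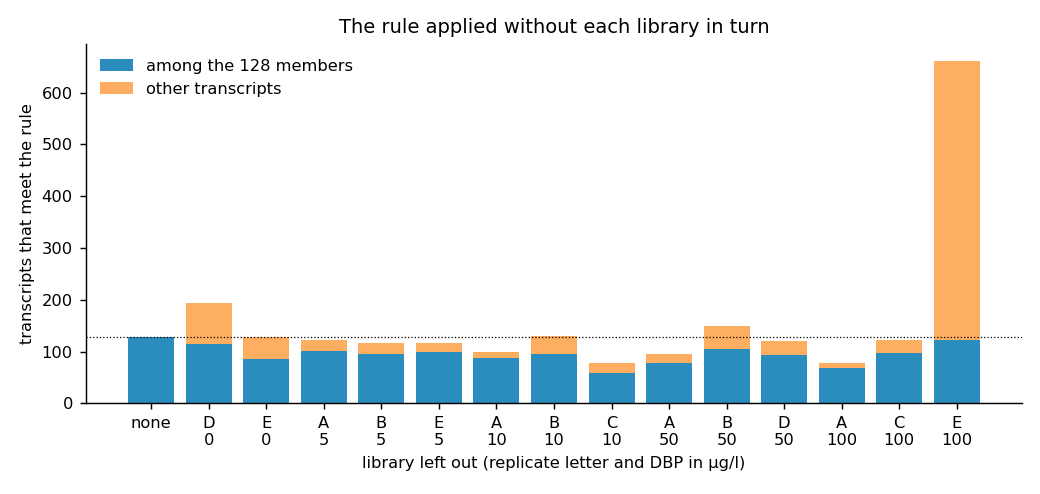
Number of transcripts that meet the falling rule (y axis) with all 14 libraries and without each library in turn (x axis). The blue part of a bar counts transcripts among the 128 members and the orange part the others; the count is 661 without 100 μg/l replicate E and between 77 and 194 without any other library, and the dotted line is at 128.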

How the data were processed

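The authors trimmed the 75-base single reads of poly-A libraries with Trimmomatic and quantified them with Salmon 1.5.1 on the GRCz11 reference transcriptome. The deposited table of estimated counts is unscaled; the authors also deposited TPM values, which Salmon derived from the counts and the effective length in each library. The estimated counts of control B use decimal commas in its own file and were read as decimals. The 2 controls and 3 libraries per exposed concentration, at 17.2 to 28.0 M counts, limit the precision of every value.

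CPM were estimated counts over the column sum, and no pseudocount was added except where log2(CPM + 0.5) is named. The members, the rule and the lists were chosen with earlier results of these data known. For the tests, estimated counts were rounded to whole numbers and fitted with edgeR's quasi-likelihood test (TMM, filterByExpr by concentration, 14 libraries in 1 fit, Benjamini-Hochberg adjustment over all tested transcripts, threshold 0.05). The trend was a joint test of a linear and a quadratic term on the rank of the concentration. Alternatives were DESeq2, limma-trend on log2(CPM + 0.5), other scalings, no filter, other choices of control, the replicate letter as a block, a linear trend, TPM, other limits of the rule and each library left out. Identifiers printed are those of transcripts named in the text of the study and, at most, the 2 members with the largest ratio among those above 0 in all 14 libraries. Gene lists and cell type markers were not used, because the sources used here pair too few identifiers with names, and no sequences are shown. The software was Python 3.11.15 (matplotlib 3.10.9, pandas 2.3.3, numpy 2.4.6) and R 4.3.3 (DESeq2 1.42.0, edgeR 4.0.16, limma 3.58.1).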

Additional observations from a re-analysis of the deposited data

Results flagged for a closer look

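In 3 members, control B, which the rule did not use, lay above 1.5 times the higher of the other controls (4.48% of the background). The rule chose the members for high values in controls D and E, so nothing is read from this count. A transcript of 1242 bases had 179 CPM in control B, against 34.3 and 26.7 CPM in controls D and E, and was at 0 in all libraries at 100 μg/l. A transcript of 1716 bases had 33.8 CPM in control B, against 11.9 and 9.33 CPM in the other controls. A transcript of 1629 bases had 10.6 CPM in control B, against 6.45 and 6.74 CPM in the other controls. More members went the other way, with control B below both other controls in 91 (48.2% of the background). Among them, a transcript of 4308 bases had 0 CPM in control B, against 43.0 and 47.6 CPM in controls D and E. A transcript of 558 bases also had 0 CPM there, against 45.4 and 50.3 CPM. Groups of 2 or 3 libraries are too small to look for single outlying values.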

How the results depend on the processing

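The median log2 fold change of the members at 100 μg/l was below 0 under every alternative, between -0.93 and -0.64 with a library left out. The rule set this direction through its choice of members, so nothing is read from it. Beside the members called, the numbers of all tested transcripts called lower are given in brackets. By the trend, the members called were 67 with DESeq2 (1742 of 32350) and 20 with limma-trend (247 of 32350). They were 6 with no filter (63 of 39882) and 7 with all 15 libraries (93 of 31679). With control D left out in place of B they were 3 (28 of 32581), and with a linear trend 29 (293 of 32350). With a library left out they were between 1 and 26. The lowest was without 100 μg/l replicate C (21 of 32147) and the highest without replicate E (387 of 32140). At 100 μg/l the members called were 40 with DESeq2 (486 of 32350), 1 with limma-trend (21 of 32350) and 1 with RLE size factors (11 of 32350). They were 2 with all 15 libraries (9 of 31679) and between 0 and 2 with a library left out (2 to 24 transcripts). DESeq2 called 17 at 50 μg/l (720 of 32350), 2 at 10 μg/l (238 of 32350) and 1 between adjacent doses (160, 67 and 140 of 32350 in turn). With a library left out edgeR called 0 members at 50 μg/l (2 to 17 transcripts) and 0 to 1 at 10 μg/l (1 to 44). It called 0 at 5 μg/l (0 to 5) and 0 between adjacent doses (0 to 19). The rule was met by 81 transcripts on TPM (22 of them members), 169 on TPM with the level limit on CPM (89), 46 at a fold limit of 2, 229 at a level limit of 1 CPM, and 77 to 661 with a library left out. The last TPM setting, the other contrasts and control D for B in the rule were chosen after seeing the data. Over all transcripts and in either direction, edgeR called 295 by the trend and 29 at 100 μg/l, DESeq2 3485 and 1164, limma 535 and 55. With a block on the replicate letter, the trend was called in 1 member and in 12 transcripts in all, 3 of them lower, and at 100 μg/l in 0. Deviations from the dose means had a median correlation of 0.17 over 14 same-letter pairs and of -0.07 over 64 other pairs. Of the 14 same-letter pairs 10 exceeded 0.1, and 2 of 14 libraries had their best partner under the same letter. The letters were to be taken as pairs only if all 14 exceeded 0.1, so the main fit has no block. Whether libraries of the same letter share an effect was not tested. Counting error limits the members of 5 to 10 CPM most.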

Other observations

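Of 7 other transcripts whose identifiers in the text of the study matched the files as written, 4 had a mean at 100 μg/l below that of the controls without meeting the rule. They were singled out after their values were seen. The transcripts named slc9a3r1a and dap declined in mean to 50 μg/l and lay higher at 100 μg/l. For slc9a3r1a (a scaffold protein of membrane transporters) the means were 26.3, 19.9, 15.0, 13.8 and 14.5 CPM at 0, 5, 10, 50 and 100 μg/l, and for dap (named for death-associated protein) 20.7, 16.7, 12.8, 10.9 and 12.9 CPM. For tdh2 the means were 27.7, 30.6, 30.2, 18.7 and 18.9 CPM, and for cdh11 (a cadherin of cell adhesion) 97.3, 109.5, 88.7, 73.5 and 76.6 CPM. In each of these 4 transcripts replicate E was the highest library at 100 μg/l, as it was in 80 of the 128 members (40.0% of the background). It was also the highest for unc45b, whose mean was 32.6 CPM in the controls and 61.2 CPM at 100 μg/l, but not for pms1 and zgc:112437.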
